A study of Mus musculus with 12 samples.

Results

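The genes described here were the members of cytochrome P450 families 1 to 3 in mouse fetal liver, chosen by symbol (Cyp, a family number from 1 to 3, a subfamily letter and a gene number). The rule found 59 of the 30743 genes in the table, 3 in family 1, 48 in family 2 and 8 in family 3. The livers came from 12 male C57BL/6J fetuses taken at 15 ± 0.5 days post coitum. Dams were kept for 12 to 14 weeks on a control diet with 13.5% of its calories from fat (6 fetuses) or on a high-fat diet with 60% (6 fetuses). Each liver was sequenced whole, so hepatocytes and blood-forming cells were measured together, and fewer cells of a type and less RNA per cell cannot be told apart.

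Every level below is the authors' average over all 12 livers, less the value that genes without reads carry. Both diets are pooled in it, it has no replicate error, and the diet comparison was not analysed here. Levels are in CPM, the reads of a gene scaled to the size of the library, and the reads behind them were estimated from the same average. Intervals are exact 95% Poisson intervals on the estimated reads, and they cover counting error only.

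Cytochrome P450 enzymes hold a heme group and insert oxygen into fats, steroids, bile acids and foreign compounds, using electrons passed on by a reductase in the endoplasmic reticulum. Families 1 to 3 are known mainly for the handling of drugs and other foreign compounds, and several members also act on steroids, arachidonic acid or vitamin D. In rodents many of these genes lie in clusters of near-identical copies, and the liver is known to replace fetal forms with adult forms around and after birth.

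The near-identical copies bear on how far a level belongs to a single gene, so the coding sequence at the heme-binding site is shown for 3 subfamilies. Each line holds 60 coding bases within 1 exon, 5′ to 3′, from the annotated transcripts on GRCm38 (mm10). The fourth codon, tgc or tgt, is that of the cysteine that binds the heme iron. Capitals mark bases that differ from the first line of the group. All of the genes lie on the minus strand.

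In the Cyp3a group, with Cyp3a16 first at chr5:145440399-145440458, Cyp3a11 and Cyp3a44 each differed at 2 bases, Cyp3a41b at 3 and Cyp3a13, which lies apart from the others on chromosome 5, at 8.
Cyp3a16: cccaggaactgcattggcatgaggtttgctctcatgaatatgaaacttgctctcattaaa
Cyp3a11: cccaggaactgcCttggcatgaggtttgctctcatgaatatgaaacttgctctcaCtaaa
Cyp3a44: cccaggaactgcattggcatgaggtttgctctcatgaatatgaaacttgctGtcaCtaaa
Cyp3a41b: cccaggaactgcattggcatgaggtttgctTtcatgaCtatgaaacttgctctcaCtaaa
Cyp3a13: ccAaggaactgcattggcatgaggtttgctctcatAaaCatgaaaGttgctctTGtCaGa

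In the Cyp2c group, with Cyp2c68 first at chr19:39689192-39689251, the windows of Cyp2c67, Cyp2c40 and Cyp2c69 did not differ from it at any base, while Cyp2c70 differed at 14.
Cyp2c68: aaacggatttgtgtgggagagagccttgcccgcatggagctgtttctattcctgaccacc
Cyp2c67: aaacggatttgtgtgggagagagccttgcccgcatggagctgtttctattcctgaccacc
Cyp2c40: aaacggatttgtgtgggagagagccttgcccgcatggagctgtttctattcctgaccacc
Cyp2c69: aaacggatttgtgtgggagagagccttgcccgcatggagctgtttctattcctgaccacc
Cyp2c70: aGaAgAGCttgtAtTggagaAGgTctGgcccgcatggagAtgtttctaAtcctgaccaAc

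In the Cyp2d group, with Cyp2d26 first at chr15:82790294-82790353, Cyp2d10 differed at 2 bases and Cyp2d40 at 6.
Cyp2d26: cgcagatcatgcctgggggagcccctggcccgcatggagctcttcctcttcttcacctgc
Cyp2d10: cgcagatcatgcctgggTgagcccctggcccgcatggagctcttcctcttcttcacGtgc
Cyp2d40: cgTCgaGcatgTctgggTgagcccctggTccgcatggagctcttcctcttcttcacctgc

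Reads were found for 45 of the 59 members (76.3%), and 20 (33.9%) were above 1 CPM. Over all 30743 genes the shares were 63.9% and 31.9%, and over the 40 genes of other P450 families they were 82.5% and 25.0%. The members summed to 462 CPM, or about 72835 estimated reads over the 12 livers. Family 2 held 71.4% of that sum, family 3 held 28.3% and family 1 held 0.333%. A few genes held most of the signal. Cyp2d26 alone, at 190 CPM (interval 188 to 192), held 41.1% of the summed CPM, and Cyp3a16 followed at 90.1 CPM (88.6 to 91.6).

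**Figure D1:**
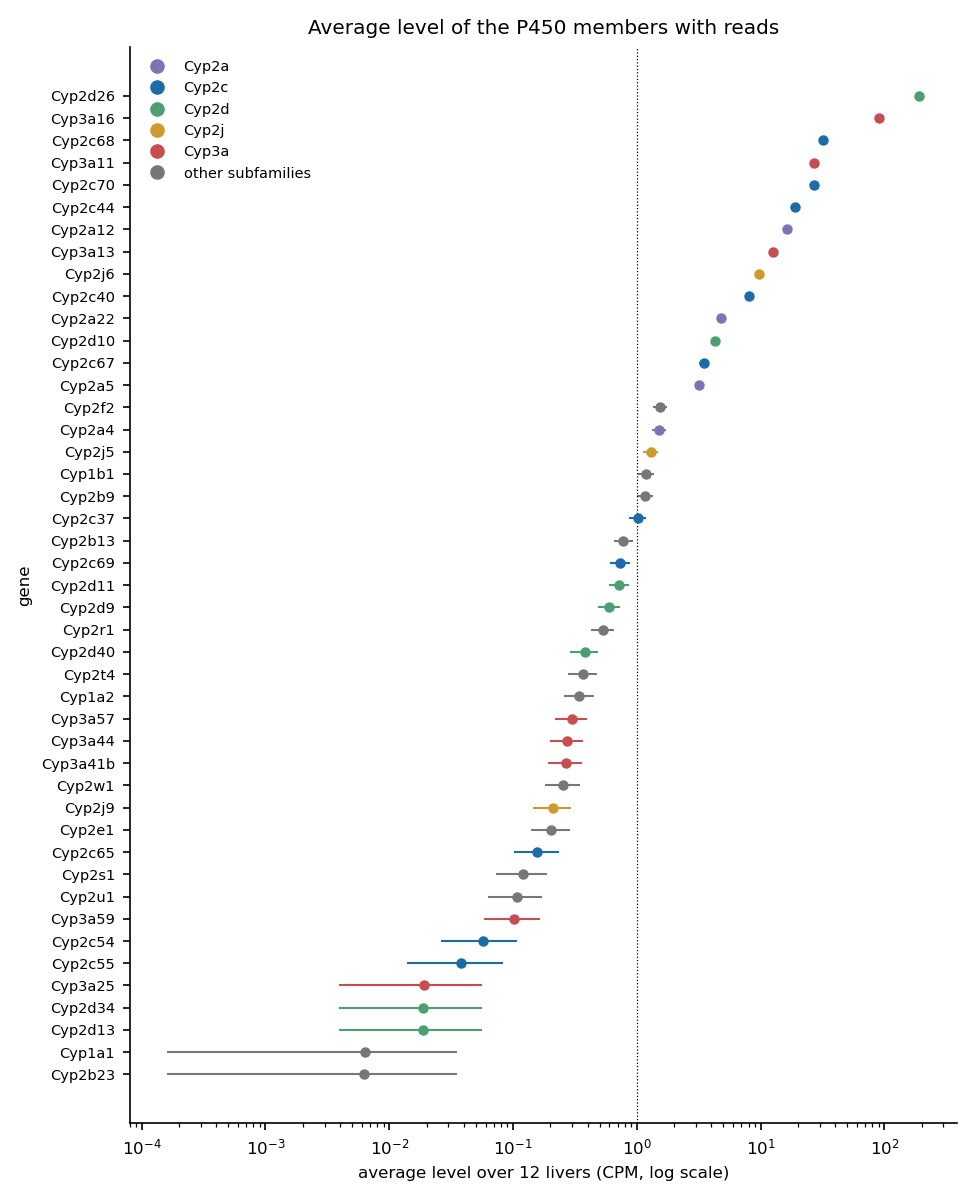
Average level over 12 livers, in CPM on a log axis, of the 45 members with reads, coloured by subfamily. Points are the authors' averages less the value of genes without reads, bars are exact 95% Poisson intervals on the estimated reads, and the dotted line marks 1 CPM. The 14 members listed at 0 are not drawn. Cyp2d26 and Cyp3a16 stand above all others, and the intervals widen to the left, where few reads were counted.

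The Cyp2d subfamily led, with 46.6% of the members' summed level per length (CPM per kb of merged exons). Nearly all of it was Cyp2d26, at 106 CPM per kb (105 to 107). At 190 CPM it was exceeded by 797 genes in the whole table. Cyp2d10 followed at 4.30 CPM (3.99 to 4.64). Cyp2d11 was at 0.718 CPM, Cyp2d9, a testosterone hydroxylase of the adult male liver, was at 0.602 CPM, and Cyp2d40 was at 0.379 CPM. Cyp2d34 and Cyp2d13, the latter a transcribed pseudogene in RefSeq, had about 3 estimated reads each, and Cyp2d12 and Cyp2d22 were listed at 0. Cyp2d26 is the last of the 8 placed Cyp2d genes along chromosome 15 (chr15:82790101-82794294, minus strand), next to Cyp2d40. Of the 50-base words of Cyp2d26, 9.49% also occurred in another gene, against 35.8% for Cyp2d10, 37.2% for Cyp2d11 and 21.8% for Cyp2d9.

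The Cyp3a subfamily held 26.5% of the summed level per length, and all 8 of its members had reads. Cyp3a16, known as a fetal form, was at 52.1 CPM per kb (51.2 to 52.9). Cyp3a11, the main adult form and a target of the pregnane X receptor, was at 27.2 CPM (26.4 to 28.0). Its annotated exons, merged over 2 transcripts, span 5093 bases, against 1730 for Cyp3a16, so per length it came to 5.34 CPM per kb. The longest single transcript of Cyp3a11 has 2802 bases, which gives 9.71 CPM per kb. Cyp3a13 was at 12.5 CPM (12.0 to 13.1). The other 5 members, Cyp3a57, Cyp3a44, Cyp3a41b, Cyp3a59 and Cyp3a25, lay between 0.0190 and 0.298 CPM. As listed, 3 of the 8 genes thus held nearly the whole subfamily. For Cyp3a41b, 93.5% of its 50-base words also occurred in another gene, mainly Cyp3a41a, so its 0.266 CPM is uncertain. The share was 30.0% for Cyp3a59, 26.8% for Cyp3a25, 26.5% for Cyp3a44 and 8.63% for Cyp3a57. It was 10.7% for Cyp3a16 and 6.73% for Cyp3a11. Reads may therefore be lost or placed in the wrong copy, and the split within the subfamily carries that limit.

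The Cyp2c subfamily was the largest, with 15 members. It held 20.6% of the summed level per length, 10 members had reads, and 6 were above 1 CPM. Cyp2c68 was highest at 32.1 CPM (31.2 to 33.0). Cyp2c70, which makes the muricholic acids of mouse bile, was at 27.2 CPM (26.4 to 28.0), and Cyp2c44, an arachidonic acid epoxygenase, was at 19.1 CPM (18.4 to 19.8). No 50-base word of Cyp2c70 or Cyp2c44 occurred in another gene. Cyp2c40 was at 8.07 CPM, Cyp2c67 at 3.48 CPM, Cyp2c37 at 1.02 CPM (0.870 to 1.19, so on either side of 1 CPM) and Cyp2c69 at 0.734 CPM. Of the words of Cyp2c37, 30.1% also occurred in another gene, and its coding identity with Cyp2c50 was 96.1%, so its level is uncertain too.

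The levels of Cyp2c68, Cyp2c40, Cyp2c67 and Cyp2c69 cannot be assigned gene by gene with confidence. Coding identity was 98.1% between Cyp2c40 and Cyp2c68 and 97.2% between Cyp2c67 and Cyp2c68, and 43.3% (Cyp2c68) to 60.3% (Cyp2c40) of their 50-base words occurred in another gene. The 60 bases shown above are the same in all 4. How reads that match several genes were counted is not given in the sources used here. Cyp2c65, Cyp2c54 and Cyp2c55 were at 0.157, 0.0574 and 0.0383 CPM, and Cyp2c29, Cyp2c38, Cyp2c39, Cyp2c50 and Cyp2c66 were listed at 0.

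**Figure D2:**
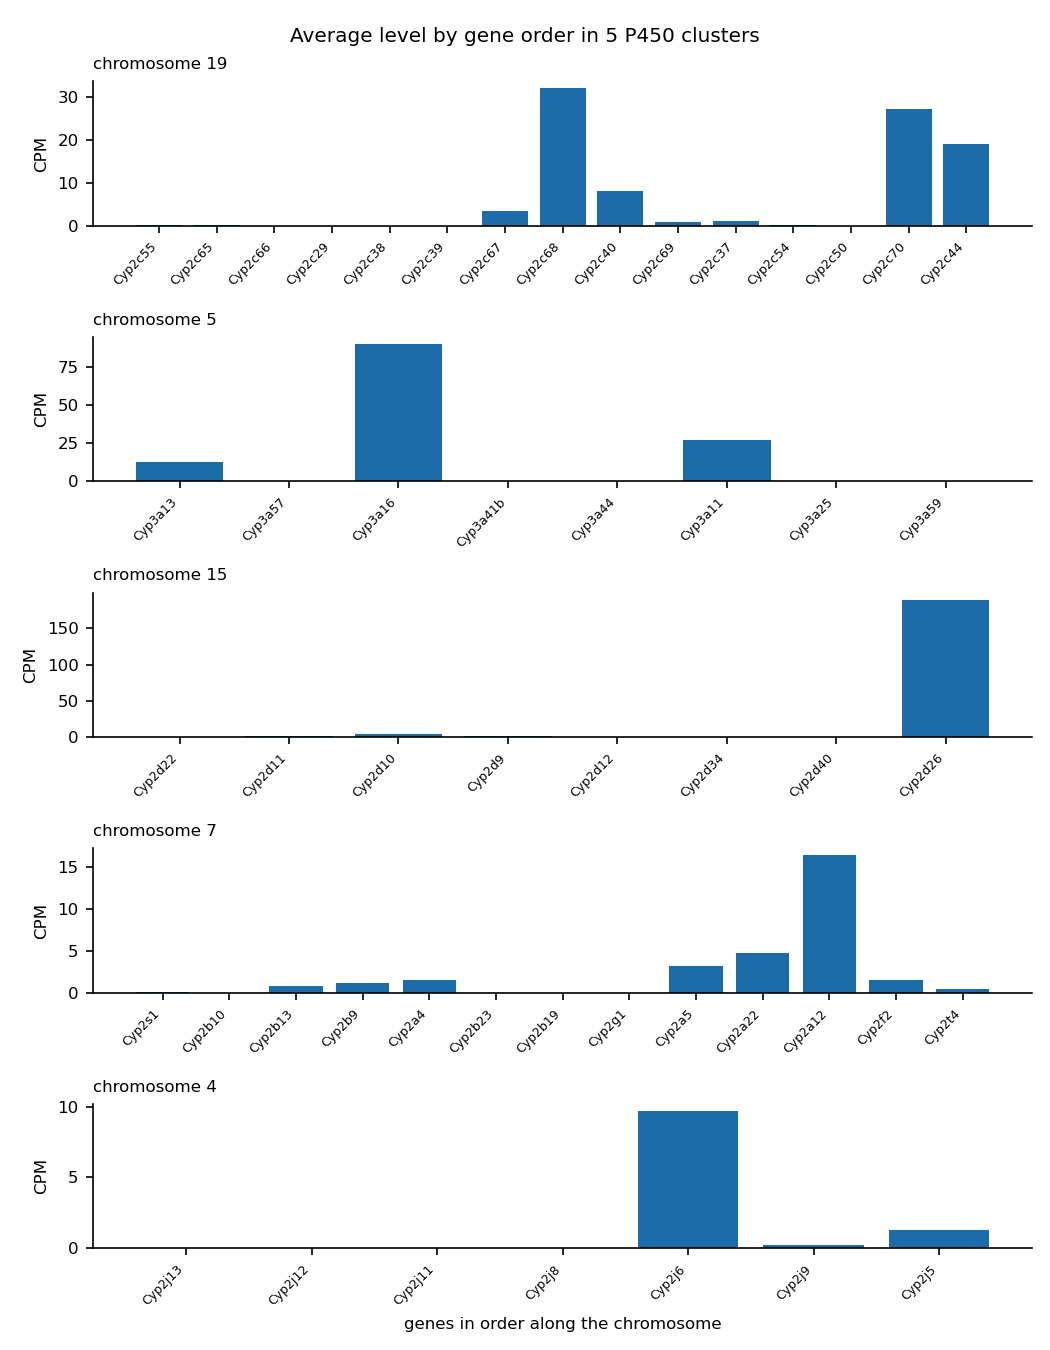
Average level (CPM, linear axes that differ between panels) of members in their order along chromosomes 19, 5, 15, 7 and 4, with equal spacing per gene. Single genes stand out among neighbours at or near 0, such as Cyp2d26 at the end of the chromosome 15 panel. Runs of neighbours with reads also occur, such as Cyp2c67 to Cyp2c54 on chromosome 19 and all 8 genes on chromosome 5. Some genes in these runs are close to 0, and near-identical neighbours may share reads.

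All 4 Cyp2a members were above 1 CPM. Cyp2a12 was at 16.4 CPM (15.8 to 17.1), Cyp2a22 at 4.77 CPM, Cyp2a5, which hydroxylates coumarin, at 3.21 CPM, and Cyp2a4, a testosterone hydroxylase, at 1.52 CPM. Coding identity was 98.5% between Cyp2a4 and Cyp2a5 and 96.95% between Cyp2a12 and Cyp2a22, so reads can be shared within each pair. In the Cyp2j subfamily, whose enzymes oxidise arachidonic acid, Cyp2j6 was at 9.69 CPM (9.21 to 10.2), Cyp2j5 at 1.29 CPM and Cyp2j9 at 0.209 CPM. Less than 1% of the words of each occurred in another gene. Cyp2j8, Cyp2j11, Cyp2j12 and Cyp2j13, the first 4 members in the order along chromosome 4, were listed at 0.

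The remaining subfamilies were low. Among the Cyp2b genes, Cyp2b9 was at 1.17 CPM (1.01 to 1.36) and Cyp2b13 at 0.779 CPM. Of their 50-base words, 11.2% and 27.3% also occurred in another gene. Cyp2b23 had about 1 estimated read. Cyp2b10, a target of the constitutive androstane receptor in adult liver, and Cyp2b19 were listed at 0. Cyp2f2, best known from airway club cells, was at 1.54 CPM (1.35 to 1.75), with 274 exonic bases overlapping another annotated gene. In all, exons of 11 members overlapped another gene, among them those of Cyp2d10 (60 bases) and Cyp2a4 (61 bases), and reads from overlapping genes may not be told apart. Cyp2r1, a vitamin D 25-hydroxylase, was at 0.535 CPM, and Cyp2e1, the ethanol-inducible form of adult liver, was at 0.204 CPM. Cyp2t4, Cyp2w1, Cyp2s1 and Cyp2u1 lay between 0.108 and 0.368 CPM, and Cyp2g1, an olfactory form, was listed at 0.

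Family 1 holds the classical targets of the aryl hydrocarbon receptor. Cyp1b1 was at 1.19 CPM (1.02 to 1.37), Cyp1a2 was at 0.341 CPM (0.257 to 0.447), and Cyp1a1 had about 1 estimated read. The receptor gene Ahr itself was at 21.9 CPM and its target Tiparp at 28.3 CPM, while its partner Arnt was at 0.558 CPM and its repressor Ahrr at 0.0253 CPM.

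**Figure D3:**
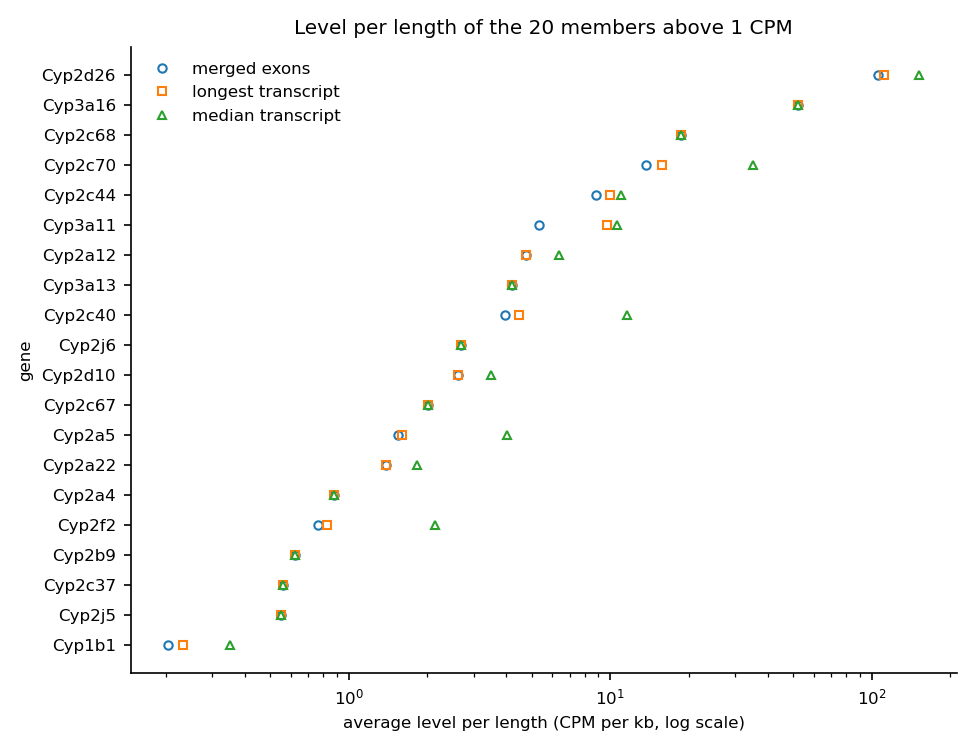
Average level per length (CPM per kb, log axis) of the 20 members above 1 CPM, with the length taken from merged exons, the longest transcript or the median transcript. Cyp2d26 and Cyp3a16 are highest with each length, and for several genes below them the 3 points spread more widely than the gap to the next gene.

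Per length of merged exons, the order after Cyp2d26 and Cyp3a16 was Cyp2c68 at 18.6, Cyp2c70 at 13.7, Cyp2c44 at 8.86, Cyp3a11 at 5.34, Cyp2a12 at 4.75, Cyp3a13 at 4.23, Cyp2c40 at 3.96 and Cyp2j6 at 2.69 CPM per kb. Of the 19 neighbouring pairs among the members above 1 CPM, 7 had overlapping intervals, among them Cyp3a13 with Cyp2c40 and Cyp2j6 with Cyp2d10. No test of a difference was run for these pairs. Of the 20 members above 1 CPM, 11 had over 10% of their 50-base words in another gene, among them Cyp2c68 and Cyp2c40. Their places in this order are uncertain for that reason too, also where intervals do not overlap. The choice of length moved some genes further than counting error. With the longest transcript Cyp3a11 came to 9.71 CPM per kb. With the median transcript Cyp2c70 came to 35.2 and Cyp2c40 to 11.6 CPM per kb, so Cyp2c70 then stood above Cyp2c68. These median transcripts, of 773.5 and 693 bases, are shorter than the coding sequences, of 1467 and 1560 bases. Such lengths overstate the level per length of a full mRNA. The order of Cyp3a and Cyp2c also turned with the median transcript, at 20.7% and 24.4% of the summed level per length. With the longest transcript the shares were 26.7% and 20.9%.

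**Figure D4:**
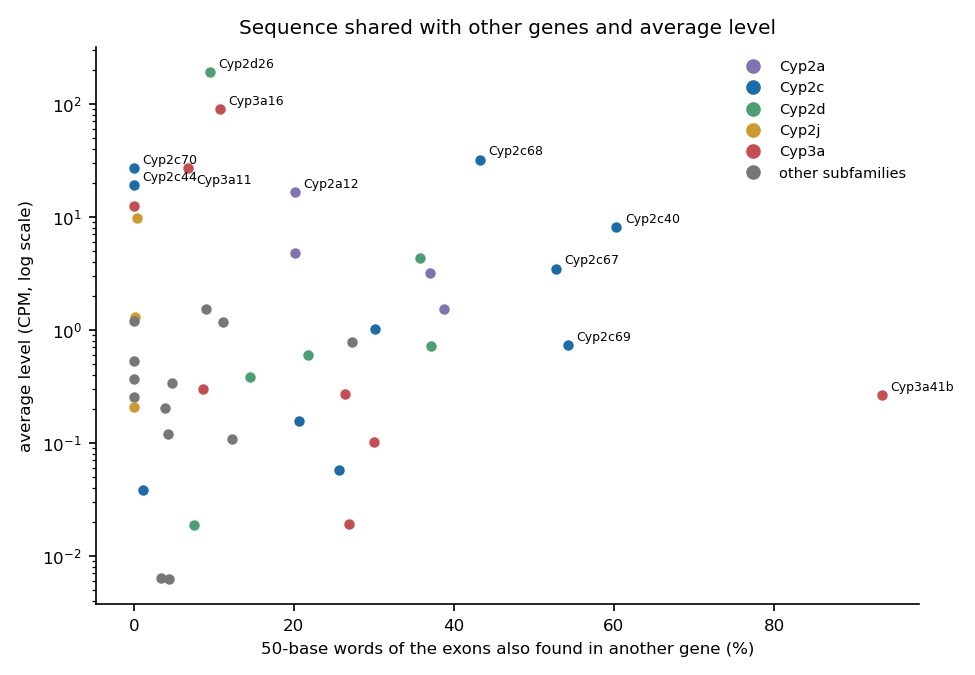
Share of each member's 50-base words that also occur in another gene (horizontal axis, %) against its average level (CPM, log axis), for the 44 members with reads and an annotated transcript. Cyp2c70 and Cyp2c44 sit at 0%, Cyp2c68, Cyp2c67, Cyp2c69 and Cyp2c40 between 43.3% and 60.3%, and Cyp3a41b at 93.5%.

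Of the 24 genes listed for redox partners and regulators, 23 were in the table and 14 were above 1 CPM. Pgrmc1, a heme-binding partner of P450 enzymes, was at 282 CPM and the cytochrome b5 reductase Cyb5r3 at 225 CPM. The nuclear receptor partner Rxra was at 205 CPM, Cebpa at 179 CPM and Nfe2l2 at 177 CPM. The pregnane X receptor Nr1i2 was at 0.748 CPM and the constitutive androstane receptor Nr1i3 at 0.114 CPM. Por, the reductase that serves all microsomal P450 enzymes, the liver factor Hnf4a and Alas1, the first enzyme of heme synthesis, were listed at 0.

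A value of 0 in this table does not show that a gene is silent. Canx and Hspa5, which all cells use, were also listed at 0, as 2 of 27 such genes, of which 18 were above 1 CPM. Ppia was at 0.0127 CPM and Gapdh at 5.05 CPM, while Actb was at 2581 CPM and Eef1a1 at 5951 CPM. These genes were chosen after their values were seen. Of the 10 members with 2 or more RefSeq mRNAs, 7 were listed at 0 (Cyp2c39, Cyp2c50, Cyp2d12, Cyp2d22, Cyp2j8, Cyp2j12 and Cyp2j13), against 7 of the 48 members with 1. Over the other genes of the table with a RefSeq mRNA the shares ran the other way. They were 18.4% of 7068 genes with 2 or more and 24.5% of 11239 with 1. The median level of these genes was nevertheless lower with 2 or more mRNAs (0.383 CPM) than with 1 (0.667 CPM). Genes without a matched RefSeq mRNA are left out of these shares. The part of the annotation in the members' zeros was not tested.

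**Figure D5:**
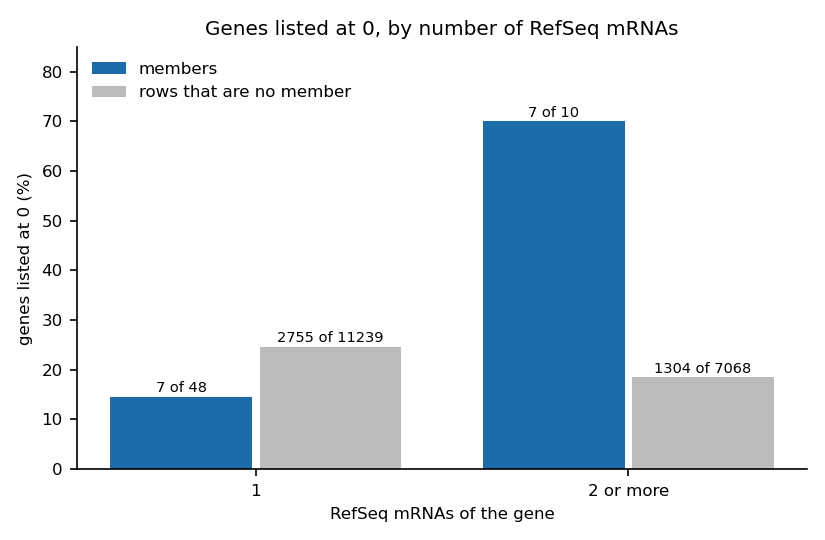
Share of genes listed at 0 (%, axis from 0), for genes with 1 and with 2 or more RefSeq mRNAs, among the members and among the other genes of the table. Genes without a matched RefSeq mRNA are left out. The counts above the bars give the 7 of 48 and 7 of 10 members, and the 2755 of 11239 and 1304 of 7068 other genes.

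The labelled tissue was checked against its markers. Hepatocyte genes were high, with Alb at 63314 CPM and Afp, the fetal counterpart of albumin, at 54525 CPM, although Serpina1a was at 0.0316 CPM. Of the 6 erythroid genes, 4 were in the table and 3 were above 1 CPM, with Slc4a1 at 12037 CPM and Alas2 lowest at 0.552 CPM. The 5 neutrophil and myeloid genes were at 112 to 758 CPM. Of the 5 macrophage genes, 4 were in the table, with Cd5l at 385 CPM, Marco at 208 CPM, Vsig4 at 2.08 CPM and Csf1r at 0.532 CPM. Endothelial genes reached 151 CPM with Pecam1 listed at 0, and stellate and mesenchymal genes 468 CPM with Pdgfrb listed at 0. The highest marker was at 5.93 CPM for biliary cells, 15.3 CPM for intestinal epithelium and 13.6 CPM for acinar pancreas. The part of these cells in the P450 levels was not tested.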

How the data were processed

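Polyadenylated RNA of 12 whole livers was sequenced. According to the submitters' processing notes, the authors used cutadapt 1.2.1, Subread 1.3.6-p1 (alignment, build mm10) and edgeR (the diet comparison). The read counter, the treatment of reads with several matches, the strand setting and the read length are not given in the sources used here. The authors deposited 1 table, with a log2 average CPM per gene over all livers. Its other 9 value columns are a repeat of that average and the authors' own fold changes, p-values and adjusted p-values, which were not used. The planned quasi-likelihood test of diet needs single-liver values and was not run.

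The lowest deposited log2 value (-2.71, 11091 genes) was taken as no reads and subtracted on the linear scale. The resulting levels summed to 1000487 CPM. Reads over the 12 livers were estimated with a prior of 2 reads per liver, which the sources do not state. Of 4038 genes estimated at 1 to 9 reads, 99.8% fell within 0.1 of a whole number. The mean effective library, computed from the lowest value and this prior, came to 13129752 reads, and 1 read to 0.00635 CPM. Both values depend on the assumed prior and are no measured depth. The arithmetic of this step was tested on simulated data made with that prior, which does not test the prior itself. Single-library depths are unknown here.

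Lengths, coordinates, sequences and shared words (all 50-base runs of a gene's annotated transcripts, looked up in all other genes) came from GENCODE M21 on GRCm38, which matched 58 of the 59 members. Cyp2d13 had no match, so it has no length. Numbers of mRNAs came from RefSeq. The work used Python 3.11.15, pandas 2.3.3, scipy 1.17.1 and Biopython 1.88. All members above 1 CPM, the highest of each subfamily and those listed at 0 were to be named. The members and lists were chosen with earlier results of these data known.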

Additional observations from a re-analysis of the deposited data

How the results depend on the processing

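Of the 59 members, 38 kept at least 10 estimated reads, against 45 with any. The number above 1 CPM stayed at 20 with nothing subtracted, and was 25 at 0.5 CPM and 14 at 2 CPM. The share held by Cyp2d was 46.6% per length and 42.4% without length. That of Cyp2d26 was 45.1% per kb of merged exons, 44.9% with the longest transcript, 46.7% with the median transcript and 41.1% without length. The 10 highest members stayed the same with the longest transcript, and 9 did with the median transcript. The median transcript can be shorter than the coding sequence, as for Cyp2d26 (1246 against 1500 bases), so results with it carry less weight. Members with over 10% of their words in another gene numbered 26 with 50-base words, 34 with 36-base words and 9 with 100-base words, where longer words match less often by construction. No paired analysis was possible because the deposited level is pooled over all 12 livers. The diet comparison was not run for the same reason, and no replicate could be left out. Members under 10 estimated reads have the widest counting intervals relative to their level.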
